A study of Mus musculus with 12 samples.

Results

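Cytochrome P450 genes were followed in epithelial cells of the mouse small intestine 24 h after stroke or sham surgery. The members were every gene whose symbol begins with Cyp, a digit from 1 to 4, any further digits and a letter, leaving out names that carry the suffix -ps. They numbered 41 of the 15855 genes in the table, with 21 in family 2, 5 in family 3, 10 in family 4 and 5 whose first digit is followed by another (Cyp11b1, Cyp11b2, Cyp20a1, Cyp27a1 and Cyp39a1). Family 1, whose members are textbook targets of the aryl hydrocarbon receptor (AhR), had 0 genes in the table and was not analysed here. All 41 were protein coding in the GENCODE M21 annotation of GRCm38.

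The study used RNA sequencing to ask how the gut epithelium differs between stroke and sham at this time. There were 7 sham and 5 pMCAO libraries, each labelled as a biological replicate of strain C57BL6/J, from mice aged 8 to 12 weeks and male unless stated otherwise in the methods. The pMCAO mice had the middle cerebral artery blocked permanently by a filament, and the sham mice went through the operation without the blockage. Live cells carrying EpCAM, a surface protein of epithelium, were sorted from the whole small intestine, so each library mixes duodenal, jejunal and ileal cells and all epithelial types.

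Cytochrome P450 enzymes are haem proteins that insert 1 atom of oxygen into their substrates, with electrons passed on by P450 oxidoreductase (Por) and cytochrome b5. Families 2 and 3 oxidise drugs, steroids and polyunsaturated fatty acids, and family 4 hydroxylates fatty acids, leukotrienes and related lipids at the far end of the chain. In the small intestine they are most abundant in villus enterocytes, where they act on food-borne compounds before these reach the liver, and ligand-bound nuclear receptors such as the pregnane X receptor (PXR, Nr1i2), the constitutive androstane receptor (CAR, Nr1i3) and peroxisome proliferator-activated receptor alpha (PPAR-alpha, Ppara) control many of them.

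Total counts per library ranged from 7418730 to 31925579, and mitochondrial ribosomal RNA took 14.6% to 54.5% of them. The first principal component of log2 CPM (counts scaled by the library total) carried 40.5% of the variance and set the 4 libraries numbered 58 to 61 (sham replicates 1 to 3 and pMCAO replicate 1) apart from the other 8. Each comparison is given from a fit on group alone and from a second fit with 4 blocks of library numbers (58 to 61, 62 to 65, 66 to 68, and 72), whose limits an earlier analysis chose by how well a batch fit matched the fold changes the authors deposited. Along that component blocks 2 and 3 overlapped. All 9 epithelial marker genes were in the table, with a summed level of 5601 to 11582 CPM in sham and 5692 to 12931 CPM in pMCAO libraries. Markers of hepatocytes, another rich source of P450 transcripts, summed to between 7.24 and 107 CPM in sham and between 35.2 and 115 CPM in pMCAO libraries over the 6 of 10 in the table, and albumin (Alb) reached at most 2.32 CPM. All 5 tested hepatocyte markers had log2 fold changes above 0 on group alone (median 1.12, Alb 2.37 with SE 1.18), beside 55.2% of all genes. With blocks Serpina1b (1.26, SE 0.32) and Cps1 (0.87, SE 0.22), a urea cycle enzyme that enterocytes also express, had an unadjusted p under 0.05, beside 6.58% of all genes higher at that p.

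The P450 genes spanned a range of levels of about 3 orders of magnitude, and 3 genes held most of the summed level. Levels between genes were compared as TMM-scaled CPM divided by exon length in kb. Averaged over the 12 libraries, Cyp3a13 stood at 242 CPM per kb, Cyp4f14 at 121 and Cyp2d26 at 116, and together they made up 56.1% of the summed P450 level per kb. These were also the 3 highest in each of the 12 libraries, with Cyp3a13 first in all 12, and their share of the sum ran from 44.0% to 66.2%. Cyp4v3 (61.5 CPM per kb), Cyp3a25 (42.9), Cyp2b10 (41.9), Cyp3a11 (37.1), Cyp4f16 (31.2), Cyp27a1 (26.9) and Cyp4b1 (25.9) followed. Cyp4f14 and Cyp2d26 overlapped across libraries, as did Cyp3a25 and Cyp2b10. On the CPM scale, 18 of 41 genes averaged at least 10 CPM, 9 averaged under 1 CPM, and 28 had counts in all 12 libraries.

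**Figure D1:**
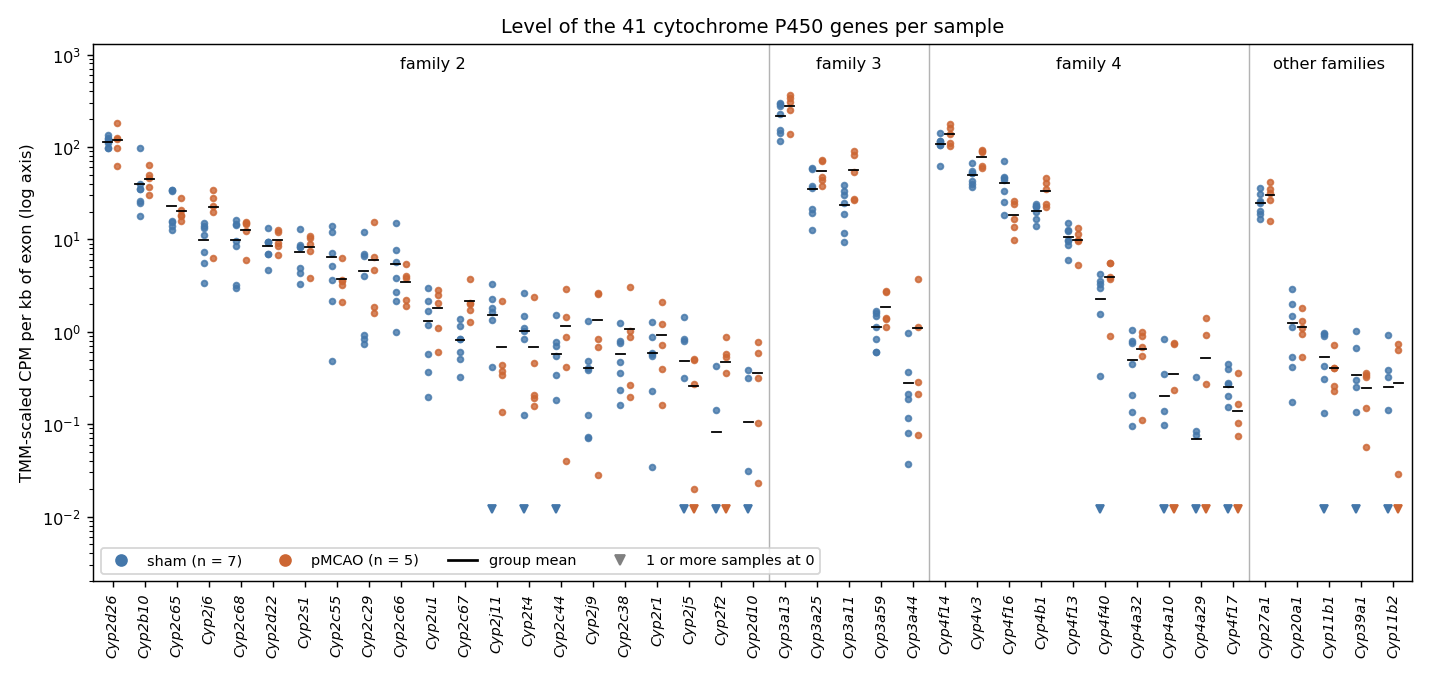
Level of each P450 gene in every library, as TMM-scaled CPM per kb of exon on a log axis, grouped by family and ordered by mean level. Points are libraries (7 sham, 5 pMCAO), short lines are group means, and triangles at the bottom mark groups with 1 or more libraries at 0; Cyp3a13, Cyp4f14 and Cyp2d26 lie above 100 CPM per kb on average.

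Counted by transcripts, family 3 was the largest and also had the largest ratio between the groups. Its summed level was 829 ± 203 CPM across the 7 sham libraries and 1232 ± 402 CPM across the 5 pMCAO libraries (mean ± SD), of which Cyp3a13 made up 71.7%. Family 4 summed to 676 ± 104 CPM in sham and 822 ± 179 CPM in pMCAO libraries, and family 2 to 511 ± 122 and 589 ± 119 CPM. The 5 genes of other families, of which Cyp27a1 made up 91.3%, summed to 59.8 ± 14.2 and 70.1 ± 21.02 CPM. Over all 41 genes the sum was 1718, 2123 and 2231 CPM in the lowest, median and highest sham library, and 3287, 1673, 2725, 3184 and 2696 CPM in pMCAO replicates 1 to 5. On this scale 4 of 5 pMCAO libraries lay above every sham library, and pMCAO replicate 2 lay below all of them. As a share of total counts, with no TMM scaling, P450 transcripts took 0.125% to 0.297% in sham libraries and 0.248%, 0.254%, 0.370%, 0.361% and 0.293% in pMCAO replicates 1 to 5, so that there only replicates 3 and 4 lay above every sham library and the order depends on the scaling.

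The groups were then compared gene by gene to ask which P450 transcripts differed 24 h after stroke. With blocks of library numbers, Cyp3a11 was higher and Cyp4f16 lower in pMCAO mice past the thresholds of the study (adjusted p at most 0.05 and at least 1 on the log2 scale). These calls are not independent of the comparison the authors deposited, since the blocks were chosen with it in view. On group alone no P450 gene passed the thresholds, nor did any of the 14462 genes tested. Most of the other P450 genes that were abundant enough to test had fold changes above 0, and of the well expressed ones Cyp4v3, Cyp4b1, Cyp2j6 and Cyp3a25 had an unadjusted p under 0.05 on group alone. Values are log2 fold changes of pMCAO over sham with standard errors (SE).

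After the filter on low counts 37 of the 41 genes were tested, and Cyp2d10, Cyp3a44, Cyp4a29 and Cyp11b2 were not. In the fit on group alone 0 of 37 were called beside 0% of all genes, and the smallest adjusted p of a P450 gene was 0.309 (limma-voom). At an unadjusted p under 0.05 there were 8 of 37 (7 higher and 1 lower in pMCAO), beside 8.43% of all genes (4.66% higher and 3.77% lower). DESeq2 called 1 P450 gene in that design, Cyp4f16 (adjusted p 0.0449). With blocks, 2 of 37 were called beside 0.325% of all genes, 1 higher (all genes 0.138%) and 1 lower (0.187%). At an unadjusted p under 0.05 the block fit had 6 higher and 2 lower, beside 6.58% and 6.17% of all genes. With blocks, 0 P450 genes were called by edgeR (adjusted p of 0.0625 for Cyp3a11 and 0.0581 for Cyp4f16) and 0 without the libraries numbered 58 to 61 (adjusted p of 0.356 and 0.285).

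The direction of the tested members leaned upward in both fits. On group alone, 27 of 37 had a log2 fold change above 0 beside 55.2% of all genes, with a median of 0.35 beside 0.06. With blocks these were 24 of 37 beside 51.3%, and a median of 0.16 beside 0.01. Scaling by total counts in place of TMM moved the median of all genes on group alone to 0.35 and that of the P450 genes to 0.71, and the split at an unadjusted p under 0.05 was then 10 higher and 1 lower, with 6.74% of all genes higher among the 7.79% with such a p. Within blocks 1, 2 and 3 taken separately, 14 of 37 kept 1 direction throughout, 10 higher and 4 lower, beside 30.1% of all genes. No P450 gene had sham and pMCAO libraries without overlap, against 0.505% of all genes.

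**Figure D2:**
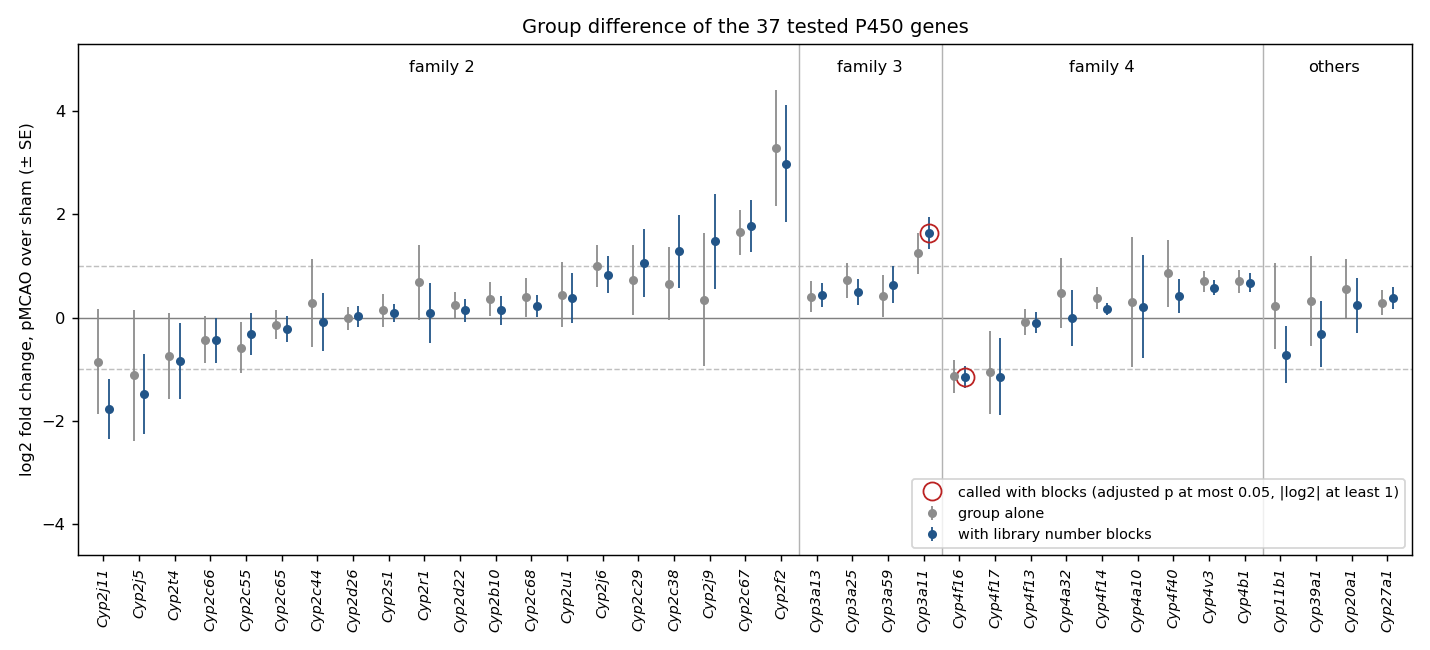
Log2 fold change of pMCAO over sham (± SE) for the 37 tested P450 genes, by family and ordered within it, from the fit on group alone (grey) and with blocks of library numbers (blue). Dashed lines mark 1 and -1, and rings mark Cyp3a11 (1.64) and Cyp4f16 (-1.15), the 2 genes called with blocks.

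All 4 tested genes of family 3 had fold changes above 0 in both fits, beside 55.2% of all genes on group alone and 51.3% with blocks. Of these Cyp3a11 passed the test with blocks. Cyp3a11, the mouse counterpart of the main human drug-metabolising P450 and a textbook PXR target, lies at chr5:145854426-145879964 on the minus strand of GRCm38. Its level was 47.2, 127 and 196 CPM in the lowest, median and highest sham library, and 461, 135, 274, 413 and 139 CPM in pMCAO replicates 1 to 5. Replicates 1, 3 and 4 of the pMCAO group lay above every sham library, while replicates 2 and 5 lay inside the sham range. The means were 121 ± 55.7 CPM in the 7 sham and 285 ± 151 CPM in the 5 pMCAO libraries (mean ± SD). The log2 fold change was 1.25 (SE 0.40) on group alone with an adjusted p of 0.390 (limma-voom), and 1.64 (SE 0.31) with blocks with an adjusted p of 0.0332. Within blocks 1, 2 and 3 the difference in log2 CPM was 1.78, 1.14 and 2.34. The call was lost without sham replicate 1, 2, 3, 4 or 6 or pMCAO replicate 1, where the adjusted p ran from 0.0515 to 0.192, and Cyp3a11 was on the list the study itself chose on these libraries and a pMCAO group larger than the 5 analysed here, so that the call is not independent evidence of its direction.

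Cyp3a13, the most abundant member, lies about 8 Mb away on the same chromosome at chr5:137892932-137921619. It measured 345, 668 and 874 CPM in the lowest, median and highest sham library and 1076, 409.8, 1012.5, 901 and 745 CPM in the pMCAO libraries. Of the latter, 3 lay above the sham range and pMCAO replicate 2 near its lower end. The fitted log2 difference was 0.40 (SE 0.30) on group alone and 0.43 (SE 0.23) with blocks, and neither passed the test. Cyp3a25 measured 26.5, 75.5 and 122 CPM in the lowest, median and highest sham library and 98.2, 79.0, 90.3, 145 and 152 CPM in the pMCAO libraries, where only replicates 4 and 5 exceeded the sham range. On the log2 scale the group difference was 0.73 (SE 0.34, adjusted p 0.588, limma-voom) and with blocks 0.50 (SE 0.25, adjusted p 0.421). Cyp3a59 averaged 2.88 CPM and shares 63.5% of its longest transcript with Cyp3a25 in identical 50-base stretches, so that reads of the pair may have been split between them or lost. Cyp3a44, not tested, shares 26.8% of its transcript with Cyp3a11. Its median was 0.371 CPM in sham and 0.560 CPM in pMCAO libraries, and its highest value, 7.35 CPM, was in pMCAO replicate 1.

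The promoters of Cyp3a11 and Cyp3a13 are printed because of these genes of one subfamily, both abundant, only Cyp3a11 was called with blocks. Their log2 ratio differed by 0.81 between the groups, with overlap (two-sided exact permutation test on group alone, p = 0.0896). They run from 250 bases before to 50 bases after the RefSeq start (GRCm38.p6, minus strand, 5′ to 3′), at chr5:145879805-145880104 and chr5:137921570-137921869. Capitals mark AGGTCA and AGTTCA (half-sites of nuclear receptors), CAAAGTCCA (an element of the kind HNF4 binds) and GCGTG (the core of an AhR element), searched on both strands.
Cyp3a11: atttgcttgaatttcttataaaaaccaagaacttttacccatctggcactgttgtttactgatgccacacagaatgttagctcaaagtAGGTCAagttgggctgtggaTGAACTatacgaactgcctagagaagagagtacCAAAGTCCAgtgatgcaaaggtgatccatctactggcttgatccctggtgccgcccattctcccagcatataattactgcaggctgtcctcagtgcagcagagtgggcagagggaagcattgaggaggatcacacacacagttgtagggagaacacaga
Cyp3a13: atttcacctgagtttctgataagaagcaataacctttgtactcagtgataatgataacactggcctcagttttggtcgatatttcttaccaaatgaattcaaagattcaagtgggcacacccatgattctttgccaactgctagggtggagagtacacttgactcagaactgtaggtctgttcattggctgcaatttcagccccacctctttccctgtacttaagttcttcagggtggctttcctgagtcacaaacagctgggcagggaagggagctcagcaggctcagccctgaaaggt
The Cyp3a11 promoter held AGGTCA, CAAAGTCCA and, on the opposite strand, AGTTCA, and the Cyp3a13 promoter held 0 of the 4 motifs. RefSeq promoters were matched for 33 of the 41 members. AGGTCA was present in 9 of the 33 (27.3%) and in 16% of all 27025 promoters, AGTTCA in 5 (15.2%) and 14%, CAAAGTCCA in 4 (12.1%: Cyp3a11, Cyp2c65, Cyp2c67 and Cyp2c68) and 0.477%, and GCGTG in 8 (24.2%) and 32.5%. The Cyp2c genes among the CAAAGTCCA matches are related and lie close together on chromosome 19. Cyp2c67 shares 58.5% of its transcript with Cyp2c68, so these matches may not be separate occurrences. A match describes letters in this window and is not a measured site, and its part in any group difference was not tested.

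Family 4 held Cyp4f16, the member called lower with blocks. Cyp4f16, a fatty acid hydroxylase of subfamily 4F at chr17:32536558-32551798 on the plus strand, measured 55.6, 133 and 216 CPM in the lowest, median and highest sham library and 80.7, 30.3, 41.7, 74.4 and 51.3 CPM in pMCAO replicates 1 to 5. Only sham replicate 7 (the lowest) and sham replicate 5, at 78.8 CPM, reached down into the pMCAO range. The means were 124.5 ± 52.2 CPM in the 7 sham and 55.7 ± 21.4 CPM in the 5 pMCAO libraries (mean ± SD). The log2 fold change was -1.14 (SE 0.32) on group alone with an adjusted p of 0.322 (limma-voom), and -1.15 (SE 0.21) with blocks with an adjusted p of 0.0224, and the difference within blocks 1, 2 and 3 was -0.99, -1.56 and -0.74. Leaving out sham replicate 4, whose absence brought the fold to -0.99, or sham replicate 6, pMCAO replicate 1 or pMCAO replicate 5, with adjusted p from 0.0777 to 0.0939, ended the call. Cyp4f16 was on the study's own list too, and 46.1% of its longest transcript is shared in identical 50-base stretches with Cyp4f37, which was not analysed here.

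None of the other 4F genes was called. Cyp4f14, which hydroxylates leukotriene B4 and lies in the same gene cluster at chr17:32905070-32917342, measured 151, 272 and 345 CPM in the lowest, median and highest sham library and 335, 267, 250.4, 391 and 427 CPM in the pMCAO libraries, so that the groups overlapped. The log2 fold change came to 0.37 (SE 0.21) on group alone and 0.16 (SE 0.11) with blocks. Cyp4f13 stood at 47.1 ± 13.1 CPM across the 7 sham libraries and 44.0 ± 13.4 CPM across the 5 pMCAO libraries (mean ± SD), with log2 fold changes of -0.09 and -0.10. Cyp4f40 (7.37 CPM on average) and Cyp4f17 (0.654 CPM) had log2 fold changes of 0.86 (SE 0.65) and -1.06 (SE 0.81) on group alone and passed neither test.

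Ratios within a library set Cyp4f16 against its relatives free of scaling. The pairs were chosen after the values had been seen, so their p-values describe these libraries. Adjustment over the 4 ratios does not cover that choice. The log2 ratio of Cyp4f16 to Cyp4f14 ran from -1.74 to -0.39 in sham and was -2.05, -3.13, -2.58, -2.39 and -3.05 in the pMCAO libraries, with no overlap. The difference was -1.49 (two-sided exact permutation test over 792 splits, p = 0.00126, the smallest this design can give, 0.00504 after adjustment over 4 ratios). With blocks it was -1.32 (exact permutation within blocks over 72 splits, p = 0.0139, the smallest possible, adjusted 0.0278), and within blocks 1, 2 and 3 it was -1.26, -1.59 and -0.98. Against Cyp4f13 the difference was -1.02 (exact permutation, p = 0.00631, adjusted 0.0126), and with blocks also -1.02.

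For Cyp3a11 the same kind of ratio separated the groups less. Its log2 ratio to Cyp3a13 lay between -3.25 and -0.82 in sham and between -2.42 and -1.12 in pMCAO libraries, the highest value being sham replicate 7. The difference was 0.81 (two-sided exact permutation test, p = 0.0896, adjusted 0.119) and 1.23 with blocks (exact permutation within blocks, p = 0.0278, adjusted 0.0371). Without sham replicate 7 the difference on group alone was 1.08 (exact permutation, p = 0.00866). Against Cyp3a25 it was 0.43 (exact permutation, p = 0.561) and with blocks 1.11 (exact permutation, p = 0.181).

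**Figure D3:**
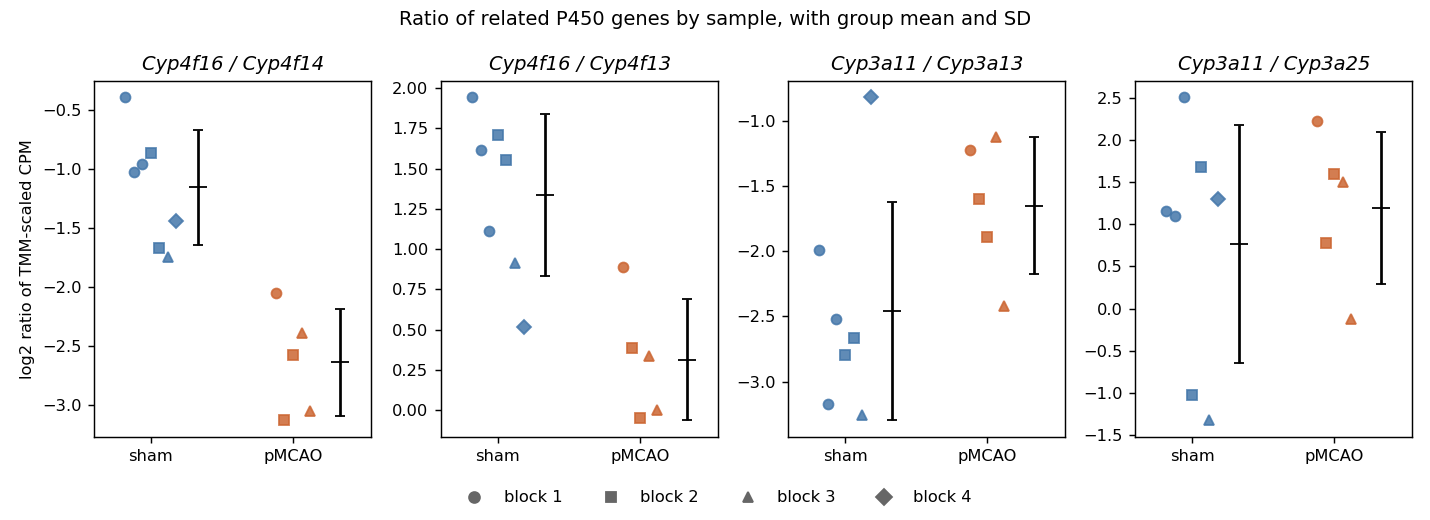
Log2 ratio of TMM-scaled CPM between related P450 genes in each library, with marker shape giving the block of library numbers and bars the group mean and SD (7 sham, 5 pMCAO). The ratio of Cyp4f16 to Cyp4f14 lies at -1.74 or above in every sham library and at -2.05 or below in every pMCAO library, whereas the ratios of Cyp3a11 overlap between the groups.

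The promoters of this pair are printed for the same reason, at chr17:32536307-32536606 on the plus strand for Cyp4f16 and at chr17:32917307-32917606 on the minus strand for Cyp4f14 (RefSeq, GRCm38.p6, first-listed starts), with the same motifs in capitals.
Cyp4f16: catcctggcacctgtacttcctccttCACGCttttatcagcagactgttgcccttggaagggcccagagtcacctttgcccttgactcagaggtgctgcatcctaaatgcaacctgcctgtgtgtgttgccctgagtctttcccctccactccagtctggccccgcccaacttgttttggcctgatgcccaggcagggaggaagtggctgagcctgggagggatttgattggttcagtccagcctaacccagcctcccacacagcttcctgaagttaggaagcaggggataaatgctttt
Cyp4f14: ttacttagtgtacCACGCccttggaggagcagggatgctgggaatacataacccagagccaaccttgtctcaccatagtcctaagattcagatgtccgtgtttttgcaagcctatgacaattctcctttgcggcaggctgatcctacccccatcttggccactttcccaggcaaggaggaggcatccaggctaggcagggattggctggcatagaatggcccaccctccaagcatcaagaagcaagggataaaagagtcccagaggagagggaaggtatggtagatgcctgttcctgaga
Each held a single GCGTG, on the opposite strand, and none of the other 3 motifs, so that the letters searched did not separate the pair.

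Cyp4v3 and Cyp4b1 had the smallest unadjusted p-values among the higher members of family 4, without passing adjustment in either limma-voom fit of all libraries. An exon of Cyp4v3, a fatty acid hydroxylase, overlaps Gm45753 on the same strand. Cyp4v3 measured 141, 197 and 257 CPM in the lowest, median and highest sham library and 354, 239, 226, 339.9 and 338 CPM in the pMCAO libraries. Its lowest pMCAO values, in replicates 2 and 3, lay inside the sham range, and the others above it. The log2 fold change was 0.70 (SE 0.20, adjusted p 0.322, limma-voom) and 0.58 with blocks (SE 0.15, adjusted p 0.115), and the 3 blocks gave 1.10, 0.39 and 0.40. Cyp4b1, which oxidises fatty acids and some plant toxins, measured 31.7, 50.9 and 54.2 CPM in the lowest, median and highest sham library and 104, 53.9, 50.8, 91.2 and 80.0 CPM in the pMCAO libraries. Again replicates 2 and 3 fell inside the sham range. The fit gave, in log2, 0.70 (SE 0.22, adjusted p 0.380, limma-voom) and 0.68 with blocks (SE 0.18, adjusted p 0.122), and the 3 blocks gave 1.17, 0.38 and 0.65. With blocks DESeq2 gave Cyp4v3 an adjusted p of 0.0456 at a log2 fold change of 0.60. When each replicate was left out in turn with blocks, the adjusted p (limma-voom) ran from 0.0464 to 0.358 for Cyp4v3 and from 0.0389 to 0.366 for Cyp4b1. The 4A genes, textbook PPAR-alpha targets, were near the limit of counting, with means of 0.858 CPM for Cyp4a32, 0.552 CPM for Cyp4a10 and 0.393 CPM for Cyp4a29, where 3 counts corresponded to 0.0940 to 0.404 CPM depending on the library. The tested Cyp4a10 and Cyp4a32 passed neither test.

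**Figure D4:**
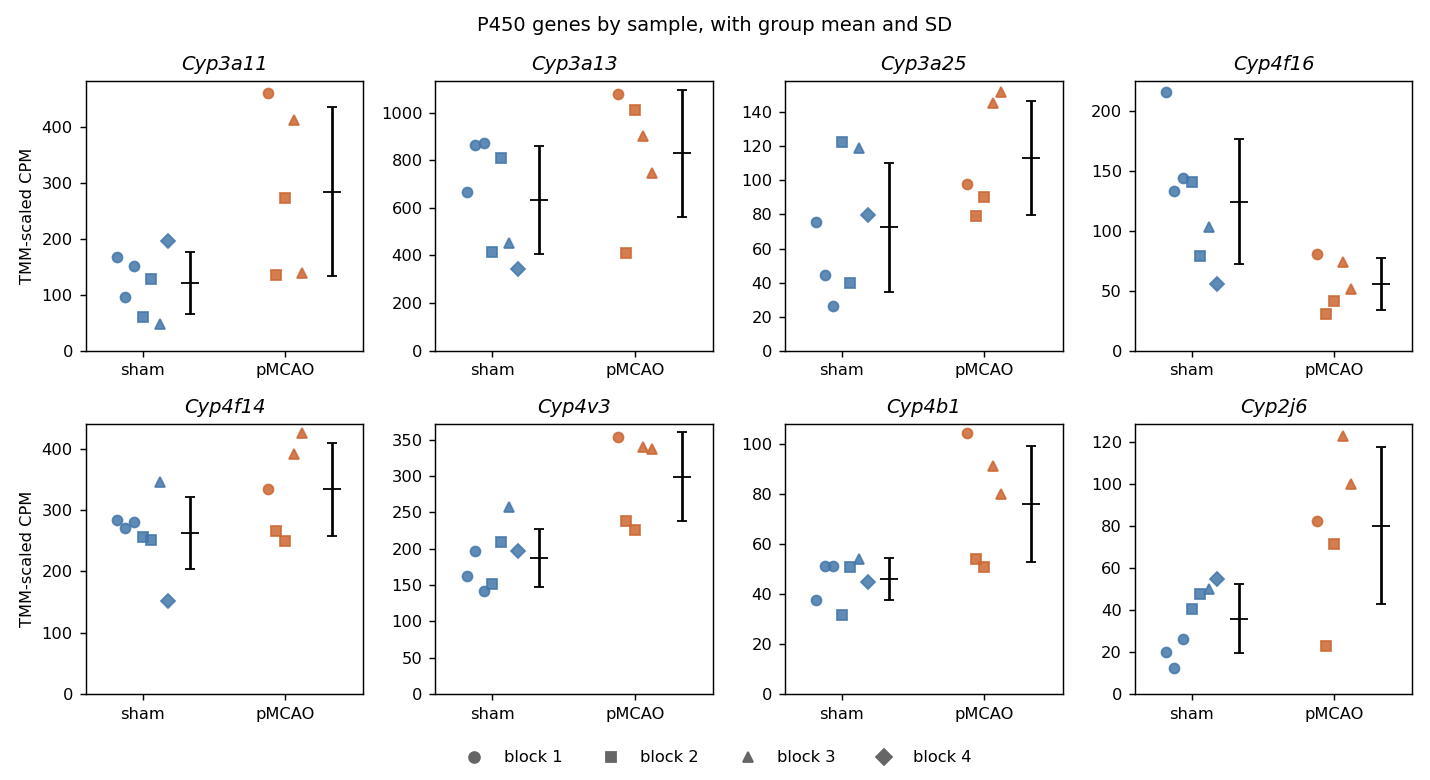
TMM-scaled CPM of 8 P450 genes in each library (7 sham, 5 pMCAO), with marker shape giving the block of library numbers and bars the group mean and SD. Cyp4f16 is lower in most pMCAO libraries, and pMCAO replicates 2 and 3 (squares) lie inside the sham range for Cyp4v3 and Cyp4b1.

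Markers of absorptive enterocytes, the cells known for the highest P450 levels, had mostly positive fold changes. Of 11 such markers 10 had log2 fold changes above 0 on group alone, beside 55.2% of all genes, with a median of 0.57. On group alone 6 were higher at an unadjusted p under 0.05, beside 4.66% of all genes. With blocks 5 did, and sucrase-isomaltase (Sis) alone passed adjustment, at 0.74 (adjusted p 0.0337, limma-voom). Their summed level lay between 15782 and 26571 CPM in sham and between 19968 and 54235 CPM in pMCAO libraries. All 7 goblet cell markers also had fold changes above 0 on group alone, 4 of them with an unadjusted p under 0.05 with blocks (beside 6.58% of all genes higher at that p), summing to 4133 to 49748 CPM in sham and 7301 to 55208 CPM in pMCAO libraries. Of 10 immune markers 5 had an unadjusted p under 0.05 with blocks, all higher in pMCAO, beside 6.58% of all genes. The immune markers summed to between 42.0 and 677 CPM in sham and between 69.9 and 473 CPM in pMCAO libraries. Also above 0 on group alone were 7 of 7 tested crypt, 5 of 6 tuft, 6 of 8 enteroendocrine and 5 of 6 Paneth cell markers. With blocks the median was 0.28 for crypt and 0.25 for Paneth cell markers. The median of tuft markers was then -0.64 and that of enteroendocrine markers -0.15, so that the direction of these depended on the fit. The general epithelial markers leaned the other way, with 3 above 0, 6 below and a median of -0.16. No crypt, tuft, enteroendocrine, Paneth or general epithelial marker had an unadjusted p under 0.05 on group alone. With blocks 2 tuft markers were lower at that p, beside 6.17% of all genes, and no marker of the other lists just named had such a p. These were Pou2f3 (-1.10, SE 0.43) and Alox5ap (-0.86, SE 0.36). The part of these cell types, of mitochondrial ribosomal RNA (14.7% to 54.5% in sham and 14.6% to 34.8% in pMCAO libraries) and of depth in the P450 differences was not tested, and in bulk samples a change in the number of cells of a type and a change in RNA per cell cannot be told apart.

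Family 2, the largest by number of genes, had no member called in either fit. Of 20 tested, 13 had log2 fold changes above 0 and 7 below on group alone, beside 55.2% of all genes above 0, with a median of 0.31. At an unadjusted p under 0.05 there were 3, all higher, beside 4.66% of all genes. With blocks the median was 0.12, with 3 higher and 1 lower at that p, beside 6.58% and 6.17% of all genes. Cyp2j6, an intestinal member of the arachidonic acid epoxygenases, measured 12.2, 40.3 and 54.5 CPM in the lowest, median and highest sham library and 82.5, 22.9, 71.4, 123 and 100.0 CPM in pMCAO replicates 1 to 5. All pMCAO libraries but replicate 2 lay above every sham library. In log2 terms the difference was 0.99 (SE 0.41, adjusted p 0.539, limma-voom) and 0.83 with blocks (SE 0.35, adjusted p 0.331), and block 2 gave -0.11 where blocks 1 and 3 gave 2.14 and 1.16. Without pMCAO replicate 2 it passed adjustment with blocks, at 1.19 (adjusted p 0.0182).

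Cyp2c67 had the smallest p-value of family 2 at a level of a few CPM. It measured 0.564, 1.45 and 2.40 CPM in the lowest, median and highest sham library and 2.22, 2.95, 3.44, 6.40 and 3.51 CPM in the pMCAO libraries, so that only pMCAO replicate 1 fell under the highest sham library. The log2 fold change was 1.65 (SE 0.44, adjusted p 0.309, limma-voom) and 1.78 with blocks (SE 0.50, adjusted p 0.143). It shares 72.8% of its longest transcript with Cyp2c40, which was not analysed here, and 58.5% with Cyp2c68, whose log2 fold change was 0.39 (SE 0.38), so its count is uncertain. Among the 2J genes of low level, Cyp2j11 went from 2.94 ± 2.11 CPM across the 7 sham libraries to 1.32 ± 1.60 CPM across the 5 pMCAO libraries (mean ± SD). The log2 difference was -0.85 (SE 1.01) on group alone and -1.77 (SE 0.58, adjusted p 0.201, limma-voom) with blocks. Sham replicate 7, alone in its block, had a count of 0, and without it the value on group alone was -1.71. Cyp2j5 had log2 fold changes of -1.12 (SE 1.26) and, with blocks, -1.47 (SE 0.77), with 3 of 7 sham libraries at 0.

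Cyp2f2, known from the airway, was low throughout. It had 0 counts in 5 of 7 sham libraries and 7 and 4 counts in sham replicates 4 and 7, and 0, 76, 47, 9 and 31 counts in pMCAO replicates 1 to 5, at most 1.78 CPM. Its fitted log2 fold change of 3.28 (SE 1.12) depends on the prior count and is no measure of size, and an exon of Gm15883 overlaps it on the other strand. None of the abundant genes of the family was called. Cyp2d26 measured 205 ± 25.8 CPM across the 7 sham libraries and 211 ± 76.8 CPM across the 5 pMCAO libraries (mean ± SD), with log2 fold changes of -0.01 (SE 0.22) and 0.02 (SE 0.20). Cyp2b10, the textbook CAR target, lay between 38.2 and 203 CPM in sham and between 63.3 and 136 CPM in pMCAO libraries, with log2 fold changes of 0.35 (SE 0.33) and 0.14 (SE 0.28). Cyp2c65 measured 43.9 ± 20.1 CPM in the 7 sham and 38.8 ± 9.23 CPM in the 5 pMCAO libraries (mean ± SD), and 42.5% of its transcript is shared with Cyp2c66. Cyp2c55, Cyp2c65 and Cyp2c66, which start within a short stretch of chromosome 19, had fold changes below 0 in both fits (-0.58, -0.14 and -0.43 on group alone), none of them past the test, and that of Cyp2c65 was 0.19 under total-count scaling. Cyp2r1, a vitamin D hydroxylase, averaged 1.54 CPM and Cyp2u1 7.95 CPM, with log2 fold changes of 0.68 (SE 0.72) and 0.44 (SE 0.63).

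The sham libraries themselves were not uniform. In 8 of 37 tested P450 genes, sham replicates 1 to 3 (block 1) all lay below the 4 later sham replicates, beside 17.3% of all genes, and in 1 of 37 all lay above, beside 10.2%. Cyp2j6 averaged 19.6 CPM in the former and 48.0 CPM in the latter, Cyp2s1 20.8 and 47.0 CPM, Cyp2c68 8.43 and 23.5 CPM, and Cyp4f40 of family 4 1.58 and 8.68 CPM. The gene with all of sham replicates 1 to 3 above the later ones was Cyp27a1, which averaged 67.4 and 43.8 CPM. Cyp4f16 and Cyp3a13 also averaged higher in the former, at 164 and 94.5 CPM and at 801 and 506 CPM, but with overlap.

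Most genes of other families act on sterols and steroids. Cyp27a1, the sterol hydroxylase of mitochondria, measured 36.4, 53.7 and 77.6 CPM in the lowest, median and highest sham library and 57.6, 33.9, 68.2, 75.4 and 89.9 CPM in the pMCAO libraries, with the highest value in pMCAO replicate 5 and the lowest in pMCAO replicate 2. The fitted log2 difference was 0.29 (SE 0.25) on group alone and 0.38 (SE 0.22) with blocks. Cyp20a1, an orphan with no established substrate, averaged 2.72 CPM, Cyp11b1, the last step of corticosterone synthesis, 1.501 CPM, Cyp39a1 0.916 CPM and Cyp11b2, the aldosterone synthase, 0.428 CPM. Cyp11b1 and Cyp11b2 share part of their sequence, 30.6% of the transcript in the case of Cyp11b2, and an exon of Cyp11b1 overlaps Gml2 on the opposite strand, with strand-specific counting not stated.

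The P450 enzymes work with a small set of partners, and none of the partner genes passed adjustment. Of 17 genes for electron transfer and haem supply, 11 had log2 fold changes above 0 on group alone, beside 55.2% of all genes. The median was 0.18 beside 0.06 for all genes, and 1, Cyb5b, was higher at an unadjusted p under 0.05 (0.50, SE 0.22), beside 4.66% of all genes. Por measured 160.0 ± 45.0 CPM across the 7 sham libraries and 149 ± 89.6 CPM across the 5 pMCAO libraries (mean ± SD), with log2 fold changes of -0.22 (SE 0.30) and -0.06 (SE 0.22). Alas1, the first enzyme of haem synthesis, had -0.13 (SE 0.21) and -0.19 (SE 0.19).

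Among receptors that control P450 genes, 17 of 18 were tested, 11 had fold changes above 0 on group alone beside 55.2% of all genes, and none passed adjustment. With blocks 4 had an unadjusted p under 0.05, all higher in pMCAO, beside 6.58% of all genes. These were the vitamin D receptor Vdr at 0.55 (SE 0.16, adjusted p 0.159, limma-voom), Nr1i2 at 0.44 (SE 0.20), Nr1i3 at 0.62 (SE 0.29) and Ppara at 0.61 (SE 0.28). Hnf4a, the enterocyte and hepatocyte factor, had 0.03 (SE 0.26) on group alone and 0.16 (SE 0.16) with blocks, and Ahr -0.25 (SE 0.24) and -0.13 (SE 0.22).

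Targets of these receptors outside the P450 family lay on both sides of 0. Over all genes, 8.43% had an unadjusted p under 0.05 on group alone and 12.7% with blocks, the shares beside which the counts of these lists stand. Of 12 PXR and CAR targets 2 had an unadjusted p under 0.05 on group alone, the efflux pump Abcg2 (0.48, SE 0.20) and, lower in pMCAO, the carboxylesterase Ces2a (-0.90, SE 0.27). The 3 tested AhR targets included the poly-ADP-ribosyltransferase Tiparp at -0.63 (SE 0.26) and the quinone reductase Nqo1 at 1.03 (SE 0.38). Of 15 PPAR-alpha targets 3 had an unadjusted p under 0.05, all higher on group alone, with the lipoprotein lipase inhibitor Angptl4 at 1.38 (SE 0.39) and the pyruvate dehydrogenase kinase Pdk4 at 1.06 (SE 0.37), and the third was the fatty acid binding protein Fabp1 at 1.00 (SE 0.47). With blocks 3 were higher and 2 lower at that p, the lower ones being the acyl-CoA dehydrogenase Acadm (-0.42, SE 0.16) and the uncoupling protein Ucp2 (-0.50, SE 0.20), and Fabp1 was 0.48 (SE 0.30). The 2 tested vitamin D targets had a median of -0.21. None of these passed adjustment in either fit.

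Other enzymes of the same metabolism gave a few larger differences. Of 24 conjugating enzymes 19 had fold changes above 0 on group alone, beside 55.2% of all genes, with a median of 0.28. The microsomal glutathione transferase Mgst1, at 1.62 (SE 0.46), passed adjustment with blocks at 1.28 (SE 0.27, adjusted p 0.0486, limma-voom). Of 24 other oxidising and hydrolysing enzymes 3 were higher and 3 lower at an unadjusted p under 0.05 on group alone, beside 4.66% and 3.77% of all genes. The alcohol dehydrogenase Adh6a was lowest in p, at -1.30 (SE 0.34) and with blocks -1.36 (SE 0.30, adjusted p 0.0599, limma-voom). In the retinoic acid pathway, whose product other P450 enzymes degrade, the beta-carotene oxygenase Bco1 was called lower with blocks, at -2.11 (SE 0.44, adjusted p 0.0435, limma-voom), from 36.3 ± 28.05 CPM across the 7 sham libraries to 5.38 ± 3.51 CPM across the 5 pMCAO libraries (mean ± SD), while the retinol dehydrogenase Rdh7 had 1.00 (SE 0.28, adjusted p 0.142). Of 10 tested transporters, efflux pumps and uptake carriers together, 1, Abcg2, had an unadjusted p under 0.05 on group alone, beside 8.43% of all genes. With blocks the cation transporter Slc22a4 did too, at -0.46 (SE 0.19), beside 12.7% of all genes.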

How the data were processed

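RNA from EpCAM-positive, 7AAD-negative cells was sequenced in 12 samples. According to the methods, the authors removed ribosomal RNA by cleavage, made libraries with the Trio kit, used STAR for aligning paired reads to GRCm38 and featureCounts for counting, and compared the groups in Degust (limma-voom) with a correction for collection day. Versions of STAR and featureCounts and the strand setting of the counting were not given in the sources used here. The counts, as deposited whole numbers, entered every test. The deposited CPM columns equalled count over column total in 190260 of 190260 values (within 0.0011 CPM) and were only checked. The deposited log2 fold change and average log2 expression columns and the deposited p-value and FDR columns hold the authors' own comparison and entered no fit or value, but the fold changes had a part in the choice of blocks.

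Genes were kept with filterByExpr (minimum count 10), which left 14462 and removed 1393. Counts were scaled with TMM and fitted in R 4.3.3 with limma-voom on group alone (limma version 3.58.1 and edgeR version 4.0.16), and again with blocks of library numbers taken from the titles. The block limits come from an earlier analysis of these data, which matched a batch fit to the deposited fold changes, and the collection day of a library is not in the labels. Sham replicate 7 is alone in its block and carries no group information there. A gene was called where its Benjamini-Hochberg adjusted p, taken over all genes tested, did not exceed 0.05 and its log2 fold change reached 1 in size. Log2 CPM used a prior count of 2. Exon lengths, overlaps and shared 50-base stretches came from GENCODE M21.

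The members, gene lists and tests were chosen with earlier results of these data known. Genes named with values were those called in either fit, the 10 smallest p-values in each fit and the 3 highest levels per length in each family, 18 in all, and further names were picked with their values known. Depth ran from 7418730 to 31925579 counts, so that 3 counts were 0.0940 to 0.404 CPM, counting error only. The labels give a replicate number but not the collection day of each library, so p-values measure the spread between these samples. Replicates of a group differed beyond counting noise (lowest chi-square per degree of freedom 20.1), so none was merged. Alternatives were DESeq2 (version 1.42.0), the quasi-likelihood test of edgeR, limma-trend, weights by sample quality, other scalings, filters and covariates, leaving out libraries and the replicate number as a block.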

Additional observations from a re-analysis of the deposited data

Results flagged for a closer look

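In 46 groups of values (named genes and summed families, each group separately), 4 held a sample far from the rest by Dixon's test at the 95% level, where chance gives about 2.3. Cyp2f2 had a log2 CPM of -3.301 in pMCAO replicate 1, where its count was 0, beside 0.30 ± 0.49 (SD, n = 4) in the other pMCAO samples. Sham replicate 7 had 7.244 on the log2 CPM scale for Cyp4f14, beside 8.13 ± 0.16 (SD, n = 6) over the rest of its group. The summed level of family 2 had a log2 CPM of 8.575 in pMCAO replicate 2, beside 9.32 ± 0.074 (SD, n = 4) in the other pMCAO samples. The summed level of all 41 P450 genes was 10.75 on the log2 CPM scale in sham replicate 7, beside 11.06 ± 0.058 (SD, n = 6) over the rest. The log2 ratio of Cyp4f16 to Cyp4f14 had no overlap between the groups with these samples included, and ran from -1.63 to -1.36 as a difference when each sample was left out in turn.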

How the results depend on the processing

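The calls depend on the blocks and on single libraries, and with 7 and 5 samples no P450 gene passed adjustment on group alone under limma-voom. On group alone, the count of all genes called was 0 in the fit as reported, 70 with DESeq2, 1 with limma-trend, 18 with sample quality weights, 3 with total counts and 156 with library number as a covariate, and from 0 to 17 without each replicate. P450 genes called numbered 1 with DESeq2 and 1 with the covariate, and 0 to 0 without each replicate, those with an unadjusted p under 0.05 from 6 to 10, and pathway list genes past adjustment 4 with DESeq2, 4 with the covariate and 0 to 0 without each replicate.

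With blocks of library numbers, all genes called were 47 as reported, 21 with edgeR, 97 with DESeq2, 26 with limma-trend, 29 with quality weights and 0 without libraries 58 to 61, and from 4 (without sham replicate 6) to 86 (without pMCAO replicate 3). P450 genes called were 0 with edgeR, 1 with total counts, where Cyp4f16 had -1.01 (adjusted p 0.101, limma-voom), and 0 without libraries 58 to 61, and from 0 to 3 without each replicate, those with an unadjusted p under 0.05 from 5 to 12. Pathway list genes past adjustment were 1 with edgeR, 6 with DESeq2, 1 with limma-trend, 1 with quality weights, 1 with total counts, 1 with no filter, 0 without libraries 58 to 61, and 0 to 6 without each replicate. Without each replicate Cyp3a11 with blocks ran from 1.37 to 1.92 and Cyp4f16 from -1.33 to -0.99. The cause was not tested, beyond the fewer samples of a left-out library.

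Samples with the same replicate number did not all deviate together (correlations of 0.398, -0.239, -0.163, 0.163 and 0.0823 for numbers 1 to 5, both libraries of number 1 being in block 1), so they were taken to share only a number. The replicate number as a block gave 259 genes, 3 P450 genes and 7 list genes on group alone, and 19, 0 and 1 when added to the blocks of library numbers. In that fit Cyp2c65 was 0.14, Cyp2j5 0.013, Cyp20a1 -0.43 and Cyp11b1 -0.61 on group alone, and Cyp2c65 0.35 and Cyp2j5 0.10 with blocks, each with its sign turned.

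Small fold changes of uncalled genes turned sign elsewhere too. On group alone these were Cyp2d26 (0.042 with edgeR, 0.021 with DESeq2, 0.26 with total counts), Cyp20a1 (-0.10 with edgeR, -0.12 with DESeq2), Cyp11b1 (-0.40 with edgeR, -0.41 with DESeq2, -0.15 with quality weights, -0.37 with the covariate) and Cyp2c65 (0.19 with total counts). With blocks these were Cyp2d26 (-0.025 with quality weights, -0.20 without libraries 58 to 61) and Cyp2b10 (-0.076 and -0.12). Without each replicate Cyp2d26 ran from -0.19 to 0.17 on group alone and from -0.20 to 0.22 with blocks, Cyp11b1 from -0.57 to 0.53 on group alone, and with blocks Cyp2b10 from -0.11 to 0.42 and Cyp2c65 from -0.52 to 0.10. The log2 ratio of Cyp3a11 to Cyp3a13 was past an exact p of 0.05 with blocks (1.23) and without sham replicate 7 (1.08), and without each replicate ran from 0.68 to 1.08, that to Cyp3a25 from 0.08 to 0.76, and that of Cyp4f16 to Cyp4f13 from -1.17 to -0.92.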
